A study of Homo sapiens with 12 samples.

Results

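Tail-to-tail pairs are neighbouring protein-coding genes on opposite strands that are transcribed toward each other. Among the authors' transcriptional units in K562 cells, 215 such pairs were found. K562 is a human cell line from a chronic myelogenous leukaemia, and a transcriptional unit is a stretch of the genome called transcribed from TT-Seq. A pair was formed by a plus-strand and a minus-strand unit of the mRNA class whose 3' ends faced or overlapped each other and lay at most 5 kb apart. The pairs were made of 425 units out of 7810 in the mRNA class and 21874 units in all, and 5 units belonged to 2 pairs. RNA was read in 4 groups of 2 libraries. TT-Seq holds RNA labelled with 4-thiouridine that was sheared by sonication before its purification, and 4sU-Seq holds labelled RNA that was purified whole. Sheared RNA with no purification step was read as Total RNA-Frag-Seq, and RNA with neither step as Total RNA-Seq. All RNA came from cells exposed to 500 µM 4-thiouridine for 5 min. RNA polymerase II was profiled by chromatin immunoprecipitation (ChIP) after 7.5 min of crosslinking, in 2 libraries with an antibody against the serine 2 phosphorylated form (S2P ChIP) and 2 with the antibody N-20 (N20 ChIP). All libraries come from this single line grown in culture. As each library pools many cells, fewer cells transcribing a gene and less RNA per cell cannot be told apart.

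RNA polymerase II does not stop where the mature mRNA ends. The cleavage and polyadenylation complex recognises a signal in the emerging RNA and cuts it there, the upstream piece becomes mRNA, and the polymerase runs on while the uncapped downstream piece is degraded. The downstream RNA is short-lived, so methods that purify newly made RNA are known to hold more of it than total RNA does. Serine 2 of the polymerase's C-terminal repeat is phosphorylated during elongation, and this form is known to peak toward gene ends, where it recruits processing and termination factors. Where a pair of genes converges, the polymerases that run past their gene ends approach each other on opposite strands.

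The binned counts summed to between 25909021 and 71317148 per RNA library and between 12598494 and 73660126 per ChIP library, so ChIP ratios carry the least precision in the shallowest library, N20 ChIP replicate 1. In the last 5 kb before the annotated gene end, genes with no unit on the other strand held a median 0.385% to 0.769% of their RNA counts on the wrong strand, the background for every opposite-strand value given here. All bins above 0 in the ChIP libraries held even counts, against 37.9% to 41.2% of such bins in the RNA libraries, so a ChIP count of 2 is the smallest step. Of the lists of cell type markers, 5 of 10 genes for K562 (GATA1, LMO2, BCR and ABL1 among them) and 3 of 10 genes for other cell types (CD3D, PTPRC and EPCAM) had a unit of the mRNA class. GATA1, LMO2, BCR and ABL1 averaged between 2.40 and 6.55 CPM per kb by TT-Seq, and the 3 genes for other cell types between 0.209 and 1.52. GATA1, an erythroid transcription factor, averaged 2.40 CPM per kb by TT-Seq, where CPM gives counts relative to the library's scaled total.

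The sequences shown here are those of the gene starts for 2 of the 8 pairs with the most strongly transcribed weaker partner. They are the promoters against which polymerase at the midpoint is compared later. Each run is the 250 bases before the RefSeq start of the gene on its own strand (GRCh38.p14), with 2 motifs in capitals: the GC box GGGCGG and the TATA box TATAAA, each searched on both strands and never overlapping each other. Of 35116 promoters in the RefSeq table, 42.6% held a GC box and 10.7% a TATA box in this window. MARK3 (chr14:103385165-103385414, plus strand), which encodes a microtubule affinity regulating kinase, converges with CKB (chr14:103522831-103523080, minus strand), the brain form of creatine kinase. PKN2 (chr1:88684023-88684272, plus strand), a serine/threonine kinase, converges with GTF2B (chr1:88891568-88891817, minus strand), the general transcription factor TFIIB.
MARK3: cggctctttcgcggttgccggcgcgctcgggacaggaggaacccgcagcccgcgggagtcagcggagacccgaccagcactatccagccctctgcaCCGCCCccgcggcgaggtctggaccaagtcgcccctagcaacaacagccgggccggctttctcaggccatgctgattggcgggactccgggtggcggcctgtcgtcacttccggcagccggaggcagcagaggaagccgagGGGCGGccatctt
CKB: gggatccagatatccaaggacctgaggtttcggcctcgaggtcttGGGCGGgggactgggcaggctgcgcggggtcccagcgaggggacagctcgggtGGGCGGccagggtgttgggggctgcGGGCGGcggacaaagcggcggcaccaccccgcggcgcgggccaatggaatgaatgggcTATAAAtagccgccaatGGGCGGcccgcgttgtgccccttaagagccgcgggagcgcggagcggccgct
PKN2: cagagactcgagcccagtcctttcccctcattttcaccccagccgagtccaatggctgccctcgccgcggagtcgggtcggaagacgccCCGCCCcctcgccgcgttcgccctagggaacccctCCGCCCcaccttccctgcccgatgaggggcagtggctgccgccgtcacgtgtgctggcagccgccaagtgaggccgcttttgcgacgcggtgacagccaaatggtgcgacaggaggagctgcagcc
GTF2B: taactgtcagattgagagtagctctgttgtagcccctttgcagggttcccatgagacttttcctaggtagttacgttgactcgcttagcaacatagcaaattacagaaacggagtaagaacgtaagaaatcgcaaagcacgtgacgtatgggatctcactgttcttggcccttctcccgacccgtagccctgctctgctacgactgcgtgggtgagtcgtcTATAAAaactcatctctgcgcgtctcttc
The CKB window held 4 GC boxes and 1 TATA box, and the GTF2B window 0 GC boxes and 1 TATA box. MARK3 and PKN2 each had 2 GC boxes and 0 TATA boxes.

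In most pairs the units met past the annotated gene ends. The units of 119 pairs overlapped, by a median of 2932 bp and at most 4989 bp, and those of 96 pairs faced each other across a gap with a median of 2685.5 bp. Both units carried a gene symbol in 182 pairs, and there the annotated 3' ends lay a median of 5924 bp apart (quartiles 696 and 12093 bp), while the units' 3' ends overlapped by a median of 1153 bp (a gap of -1153 bp). The annotated genes themselves overlapped in 26 of these pairs. Of 110 overlapping pairs with both genes named, 87 had annotated genes that did not overlap. The unit ran past the annotated gene end in 94.6% of 391 named members, against 89.2% of 6600 named mRNA units outside pairs, and the median tail, the distance from the annotated gene end to the unit's end, was 2797 bp in members and 4488.5 bp outside pairs. The distance limit itself favours short tails and short distances, so these lengths describe how the pairs were chosen. Members had a median length of 23.9 kb, against 44.3 kb for other units of the mRNA class. Chromosome 19 held 34 pairs (15.8%, against 7.2% of mRNA units) and chromosome 17 held 25 (11.6%, against 6.08%). Among pairs with both genes named, those nearest the 5 kb limit on the inside were SLC39A13 with PSMC3 (overlap 4927 bp), DOT1L with PLEKHJ1 (4945 bp) and EPN2 with B9D1 (4984 bp). Just outside lay ZSWIM3 with PLTP (gap 5022 bp), MYO9B with NR2F6 (overlap 5042 bp) and NANOS1 with EIF3A (overlap 5051 bp).

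**Figure D1:**
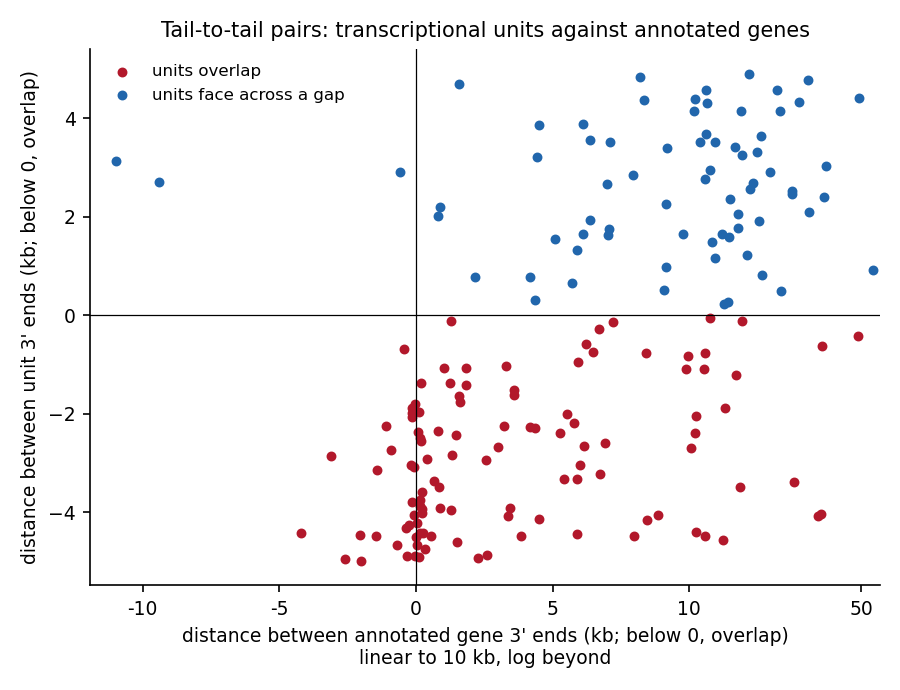
Distance between the 3' ends of the transcriptional units (vertical axis, kb) against the distance between the annotated 3' ends of the same genes (horizontal axis, kb, linear to 10 kb and logarithmic beyond) for the 182 pairs with both units named; values below 0 are overlaps. Most overlapping units (red, below the horizontal line) lie to the right of the vertical line, where the annotated genes are apart.

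The first comparison asked how far the whole units of the pairs differed between newly made and total RNA. Most members had lower levels in TT-Seq than Total RNA-Frag-Seq gave. Of 425 members, 47 were higher and 322 lower in TT-Seq (edgeR quasi-likelihood test, adjusted p under 0.05), with a median log2 difference of -0.71. Among all 19318 units tested, 81.0% were called, 43.2% higher and 37.8% lower (median 0.09). Among 7383 mRNA units outside pairs, 18.3% were higher and 60.3% lower (median -0.32), against 11.1% and 75.8% of members. Without scaling beyond library totals, the median of all units moved by 0.35 (log2) and 102 members were called higher and 247 lower. For 4sU-Seq against Total RNA-Seq, 47 members were higher and 255 lower (median -0.34), beside 68.4% of all units called, 40.2% higher and 28.2% lower. Of the mRNA units outside pairs, 21.2% were higher and 48.9% lower (median -0.17), against 11.1% and 60.0% of members. Without scaling the median of all units moved by 0.14 here and the members' calls were 72 higher and 209 lower. Without Total RNA-Seq replicate 1 they were 17 and 287 (median -0.50), and by DESeq2 24 and 302. Levels are relative within a library and were not scaled to an external standard here.

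The 8 pairs with the most strongly transcribed weaker partner held members in either direction. They were chosen by their TT-Seq level, which favours genes that are higher in TT-Seq. Their unit-level differences therefore describe single genes, and the adjusted p-values take no account of the choice. GORASP2, a Golgi stacking protein, had 3.41 and 3.55 CPM per kb of unit in TT-Seq, against 2.79 and 2.80 CPM per kb by Total RNA-Frag-Seq. Its partner TLK1, a kinase of chromatin assembly, had 3.10 and 3.10 CPM per kb by TT-Seq and 2.03 and 2.08 by Total RNA-Frag-Seq. Both were higher in TT-Seq in every replicate, by log2 0.31 ± 0.05 (SE, adjusted p = 4.72e-05) and 0.59 ± 0.05 (adjusted p = 1.41e-08, edgeR, n = 2 against 2 as in every comparison here). CKB stood at the other extreme, with 4.17 and 4.29 CPM per kb by TT-Seq, 15.5 and 18.7 by 4sU-Seq, 27.9 and 22.8 by Total RNA-Frag-Seq and 32.7 and 33.5 by Total RNA-Seq. Its TT-Seq and Total RNA-Frag-Seq values did not overlap, and the fitted difference was -2.58 ± 0.11 (adjusted p = 2.25e-10). The partner MARK3 had 1.91 and 1.99 CPM per kb by TT-Seq, against 2.41 and 2.55 by Total RNA-Frag-Seq (log2 -0.35 ± 0.05, adjusted p = 1.24e-05; -0.00 without scaling, no longer called). The partners of this pair were thus far apart in total RNA and much closer in TT-Seq.

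ACTR2, a subunit of the Arp2/3 actin nucleator, had 3.31 and 3.09 CPM per kb by TT-Seq, against 6.08 and 5.12 by Total RNA-Frag-Seq (log2 -0.81 ± 0.07, adjusted p = 3.6e-08). Its partner SPRED2, an inhibitor of Ras signalling, had 2.54 and 2.65 CPM per kb by TT-Seq, against 2.26 and 2.27 (log2 0.20 ± 0.05, adjusted p = 0.00242). GTF2B was higher in TT-Seq (1.89 and 1.84 CPM per kb) than in Total RNA-Frag-Seq (1.18 and 1.08), by log2 0.71 ± 0.07 (adjusted p = 8.65e-08). For its partner PKN2, with 2.02 and 1.98 CPM per kb by TT-Seq and 1.97 and 2.02 by Total RNA-Frag-Seq, the difference was 0.00 ± 0.05 (adjusted p = 0.963), and log2 0.35 and called without scaling. LMNB1, which encodes lamin B1 of the nuclear envelope, had 1.88 and 1.99 CPM per kb by TT-Seq, against 1.70 and 1.67 by Total RNA-Frag-Seq (log2 0.20 ± 0.06, adjusted p = 0.00347, and 0.0576 without Total RNA-Frag-Seq replicate 2). MARCHF3, a membrane ubiquitin ligase, had 2.82 and 2.76 CPM per kb by TT-Seq and 2.58 and 2.78 by Total RNA-Frag-Seq (0.06 ± 0.06, adjusted p = 0.339; 0.41 and called without scaling). Among the other named partners, ARV1 was higher (log2 0.31) and FAM89A (-0.25), SAE1 (-0.32), BBC3 (-0.27), THRAP3 (-0.40) and STK40 (-0.70) lower in TT-Seq. SAE1 is a subunit of the SUMO activating enzyme and BBC3 the pro-apoptotic protein PUMA. Without scaling, FAM89A, SAE1 and BBC3 turned to positive values with no call and THRAP3 lost its call. BBC3 was also not called without TT-Seq replicate 1 (-0.12, adjusted p = 0.317) or without Total RNA-Frag-Seq replicate 1 (adjusted p = 0.143), and FAM89A not without TT-Seq replicate 2 (-0.16, adjusted p = 0.118).

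Levels of the partners were close to unrelated in rank. The Spearman coefficient across the 215 pairs ran from 0.05 to 0.13 over the 8 RNA libraries, a description across pairs that share each library and its depth. The stronger partner exceeded the weaker by a median factor of 2.09 by TT-Seq (quartiles 1.37 and 3.59). In 9 pairs they differed by more than 10-fold.

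RNA past the annotated gene end was the clearest difference between newly made and total RNA. Own-strand counts per kb in the 5 kb past the gene end were taken as a percentage of those in the last 5 kb before it. Where the unit began within those last 5 kb, that window was cut at the unit's start. The medians over members were 16.5% and 16.3% by TT-Seq and 7.71% and 7.93% by 4sU-Seq. The medians were 3.88% and 4.07% by Total RNA-Frag-Seq and 3.79% and 3.34% by Total RNA-Seq. The 2 replicates of a group lay close together, and the labelled groups lay above both total RNA groups. In a test of this ratio, 297 of 354 members were higher and 8 lower by TT-Seq relative to Total RNA-Frag-Seq (median log2 2.20), beside 89.8% called among all 6312 mRNA units tested, 88.2% higher and 1.58% lower (median 2.39). In 4sU-Seq against Total RNA-Seq, 198 members were higher and 7 lower (median 0.97), beside 65.9% of all called, 64.0% higher and 1.89% lower. In TT-Seq against 4sU-Seq, 266 were higher and 7 lower (median 1.17), beside 80.3% of all called, 78.9% higher and 1.39% lower. Total RNA-Frag-Seq compared with Total RNA-Seq gave 0 members and 0.0% of all units by edgeR, with 32 members and 573 units at an unadjusted p under 0.05. DESeq2 likewise called 0 members and 0 of 6312 units. Of 391 named members, 29 were left out for another unit of the same strand in the window, 2 for too few counts before the gene end and 6 for too few past it. Wrong-strand reads from the partner, at the background rate, would supply 0.544% and 0.676% of the members' summed counts past the gene end in TT-Seq and at most 5.29%, in Total RNA-Seq replicate 1. Units of the mRNA class outside pairs had higher medians in TT-Seq, 25% and 25.9%, and nearly the same in Total RNA-Frag-Seq, 4.24% and 4.58%. This difference between members and other units was not tested. The distance limit favours short tails of units called from TT-Seq (median 2797 bp in members, 4488.5 bp outside pairs). It thereby also favours low TT-Seq values past the gene end, so no difference in read-through can be taken from these medians.

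**Figure D2:**
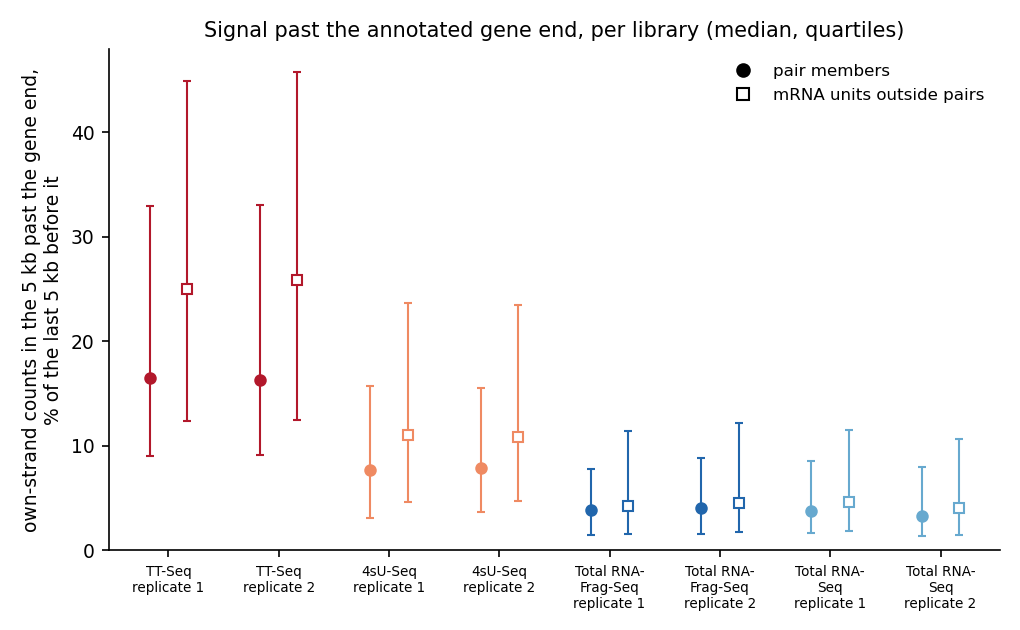
Own-strand counts per kb in the 5 kb past the annotated gene end as a percentage of those in the last 5 kb before it (vertical axis). Each RNA library (horizontal axis) has a filled circle for pair members and an open square for mRNA units outside pairs. Bars span the quartiles over units. TT-Seq libraries stand highest, at 16.5% and 16.3% in members, and the total RNA libraries lie between 3.34% and 4.07%.

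Named partners showed the same order with very different sizes. PKN2 kept 93.2% and 80.3% of its last 5 kb past the gene end in TT-Seq, 33.0% and 25.1% by 4sU-Seq, 5.46% and 7.08% by Total RNA-Frag-Seq and 7.71% and 4.29% by Total RNA-Seq. The TT-Seq to Total RNA-Frag-Seq difference was log2 3.81 ± 0.21 (adjusted p = 1.63e-21). LMNB1 reached 76.8% and 76.0% by TT-Seq, against 9.39% and 14.8% by Total RNA-Frag-Seq (2.70 ± 0.20, adjusted p = 4.79e-17). Its unit runs 26926 bp past the gene end. GTF2B and TLK1 also kept much of their signal in TT-Seq, at 41.8% and 56.8% for GTF2B and 53.0% and 55.9% for TLK1, against 7.71% and 8.96%, and 7.42% and 8.07%, in Total RNA-Frag-Seq. CKB showed the smallest share among these genes. It had 1.33% and 1.02% by TT-Seq, 0.311% and 0.331% by 4sU-Seq and 0.0549% and 0.0585% by Total RNA-Frag-Seq, and 0 counts in both Total RNA-Seq libraries. On the log2 scale its TT-Seq to Total RNA-Frag-Seq difference, 4.33 ± 0.53 (edgeR, adjusted p = 3.4e-10), was above that of LMNB1. Few Total RNA-Frag-Seq counts past the gene end lie behind the CKB value, so its size is uncertain.

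STK40, whose unit also holds LSM10, had 9.11% and 9.28% by TT-Seq against 0.326% and 0.354% by Total RNA-Frag-Seq (4.75 ± 0.31, adjusted p = 9.89e-19). SAE1 (10.1% and 10.3% against 0.610% and 0.970%) and BBC3 (8.43% and 9.95% against 0.712% and 0.666%) differed by log2 3.74 ± 0.25 and 3.72 ± 0.30. ACTR2 had 28.1% and 25.5% by TT-Seq, against 1.92% and 2.27% by Total RNA-Frag-Seq (3.69 ± 0.17, adjusted p = 4.51e-24). Partners did not always share the size of their difference. MARCHF3, the partner of LMNB1, had 3.24% and 4.48% by TT-Seq against 1.29% and 2.3% (1.15 ± 0.47, adjusted p = 0.0197). That call was lost by DESeq2 (adjusted p = 0.076), without TT-Seq replicate 2 (0.91, adjusted p = 0.113) and without Total RNA-Frag-Seq replicate 1 (0.72, adjusted p = 0.262), and with 2 kb (0.22, adjusted p = 0.722) or 10 kb windows (0.75, adjusted p = 0.089). FAM89A (0.91 ± 0.16), MARK3 (1.45 ± 0.18), THRAP3 (1.87 ± 0.21), GORASP2 (1.90 ± 0.20), SPRED2 (2.02 ± 0.23), ARV1 (2.17 ± 0.29) and GTF2B (2.57 ± 0.23) completed the 8 pairs, and every one of their 16 genes was called higher in TT-Seq.

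Own-strand RNA faded before the midpoint and did not reach far into the partner. Read in each unit's own direction, the median level in TT-Seq was 0.477 and 0.519 CPM per kb in the bin centred 9.5 kb before the midpoint. It was 0.117 and 0.128 CPM per kb at 0.5 kb before the midpoint, 0.0733 and 0.0711 at 0.5 kb past it and 0.0147 and 0.0284 at 2.5 kb past it. Total RNA-Frag-Seq had 0.607 and 0.656 CPM per kb at 9.5 kb before the midpoint and 0.0607 and 0.0395 at 0.5 kb past it. The drop between these positions was steeper in Total RNA-Frag-Seq than in TT-Seq in both replicates, a difference that was not tested. A single count in a bin gives 0.0304 and 0.0395 CPM per kb by Total RNA-Frag-Seq, and 0.0147 and 0.0142 by TT-Seq. The Total RNA-Frag-Seq medians past the midpoint thus stand at or near the counting floor, and the steepness rests on very few counts. Units were called from TT-Seq, so their ends mark where TT-Seq signal fades.

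**Figure D3:**
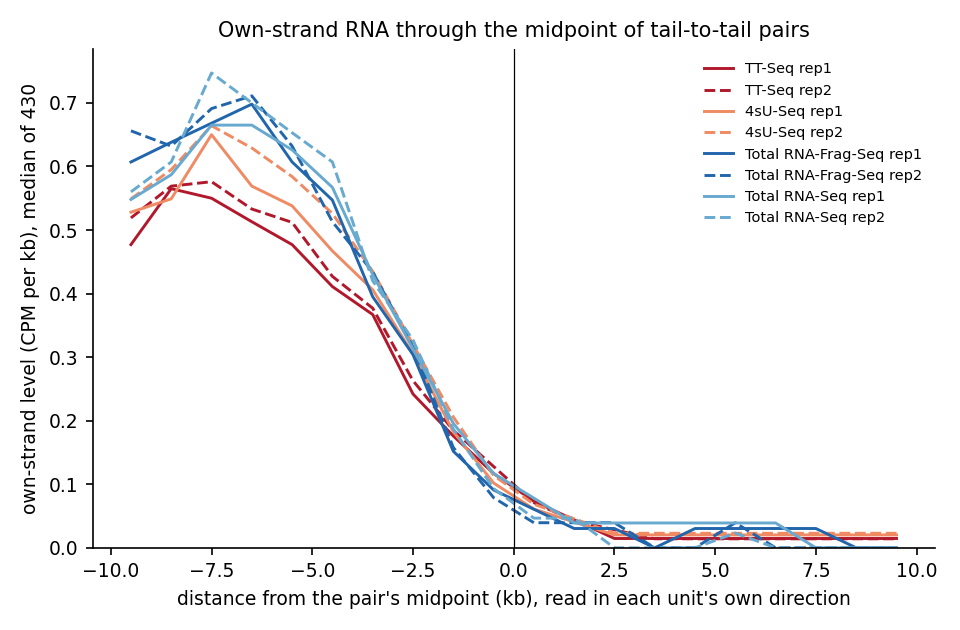
Median own-strand level (CPM per kb, vertical axis) in 1 kb bins by distance from the pair's midpoint (kb, horizontal axis; left is inside the unit, right is past the midpoint) over 430 unit ends, with a line per RNA library. All 8 lines fall toward the midpoint, from 0.477 and 0.519 CPM per kb at the left edge in TT-Seq to 0.0733 and 0.0711 at 0.5 kb past the midpoint.

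Past the unit end, where TT-Seq signal has already faded, few counts remained and the picture was mixed. Of 425 members, 66 had another unit of the same strand in the window, 3 had under 100 counts in the last 5 kb of the unit and 75 had under 20 counts past it, so 281 were tested. The windows reach the partner's unit in nearly every pair, since the ends lie at most 5 kb apart, but only counts on the member's own strand are used. With TT-Seq compared to Total RNA-Frag-Seq, 48 were higher and 28 lower (median 0.38), beside 24.3% called among 4850 mRNA units, 12.9% higher and 11.3% lower (median -0.14). DESeq2 called 16 higher and 10 lower of 278. With 2 kb windows 11 were higher and 11 lower of 100, and the median was -0.41. Without TT-Seq replicate 1 the calls fell to 32 higher and 16 lower, and without Total RNA-Frag-Seq replicate 1 to 22 and 16. In 4sU-Seq against Total RNA-Seq, 11 members were higher and 13 lower, beside 5.34% of all called, 2.29% higher and 3.05% lower. DESeq2 called 1 and 1. Leaving out a library gave 6 and 3 (either replicate 1), 9 and 6 (4sU-Seq replicate 2) or 5 and 7 (Total RNA-Seq replicate 2). In TT-Seq against 4sU-Seq, 12 were higher and 8 lower, beside 8.12% of all called, 4.49% higher and 3.63% lower. DESeq2 gave an adjusted p for 52 members and called 1. Leaving out a library left between 2.85% and 4.27% of members called, against 7.12% with all 8 (7 higher and 5 lower without 4sU-Seq replicate 2, 6 and 4 without 4sU-Seq replicate 1, 7 and 2 without TT-Seq replicate 1, 6 and 2 without TT-Seq replicate 2). With Total RNA-Frag-Seq compared to Total RNA-Seq, 0 were higher and 1 lower (0.0% and 0.124% of all), with 16 members at an unadjusted p under 0.05 and 0 members called by DESeq2. That member was SPATA24, whose unit also holds PROB1, singled out after its values were seen, with 7 and 8 counts past the end by Total RNA-Frag-Seq and 105 and 48 by Total RNA-Seq (-3.15 ± 0.44). At the background rate, wrong-strand reads would supply 4.76% and 5.73% of the members' summed counts past the unit end in TT-Seq and 9.60% and 11.3% by Total RNA-Frag-Seq. They would supply at least 50% of these counts in 30 and 26 members in TT-Seq and in 65 and 76 by Total RNA-Frag-Seq.

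The highest ratios came from members whose Total RNA-Frag-Seq counts past the unit end were at most 0.441% of those before it. PTBP1, a splicing repressor, rested on the most counts. It had 135 and 143 counts past the unit end in TT-Seq, beside 2070 and 2209 before it, against 31 and 21 counts by Total RNA-Frag-Seq, beside 6949 and 4840. The ratio was higher in TT-Seq by log2 3.88 ± 0.26 (adjusted p = 3.9e-48). Both windows enter this ratio, and the last 5 kb held more counts by Total RNA-Frag-Seq than by TT-Seq, though its libraries were shallower. STK11, the tumour suppressor kinase LKB1, had 13 and 18 counts by TT-Seq and 1 and 4 by Total RNA-Frag-Seq (3.76 ± 0.64, adjusted p = 2.18e-07). KIAA1143 had 6 and 8 counts past the end in TT-Seq and 0 and 0 by Total RNA-Frag-Seq. With the floor of 3 counts over the Total RNA-Frag-Seq group, its ratio was at least 4.4-fold higher in TT-Seq, while the exact 95% counting interval, which also covers the TT-Seq counts, starts at 3.13. Its call was lost without Total RNA-Frag-Seq replicate 1 (adjusted p = 0.0516). AAMP, MYO1D and CSTB had 1 or 2 counts in all past the end in Total RNA-Frag-Seq. AAMP had 10 and 15 counts by TT-Seq, against 1 and 0 by Total RNA-Frag-Seq, a ratio of 51.3 with a 95% exact counting interval from 8.39 to 2105. For MYO1D, an unconventional myosin, with 9 and 9 counts against 2 and 0, the ratio was 26.8 (6.41 to 238). CSTB, the protease inhibitor cystatin B, had 12 and 7 counts against 0 and 1 (ratio 20.2, interval 3.21 to 840), and lost its call without Total RNA-Frag-Seq replicate 1 (adjusted p = 0.116) and by DESeq2 (adjusted p = 0.0747). Intervals and floors cover counting error only. The downstream windows of AAMP and MYO1D hold the annotated starts of GPBAR1 and CDK5R1, listed on either strand. CDK5R1 is on the strand opposite to MYO1D, while these counts are from the member's own strand. The part of either start was not tested.

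The lowest ratios came from members whose last 5 kb held few total RNA counts. SETD2, the histone H3 lysine 36 methyltransferase, had 123 and 128 counts in its last 5 kb in TT-Seq but 10 and 9 by Total RNA-Frag-Seq, with 5 and 4 counts past the end in TT-Seq and 3 and 7 by Total RNA-Frag-Seq. The ratio was lower in TT-Seq by log2 -3.83 ± 0.83 (adjusted p = 9.55e-05), and was not called without Total RNA-Frag-Seq replicate 2 (-3.05, adjusted p = 0.0896). The unit of SETD2 ends 7589 bp past the gene, so its whole last 5 kb lies past the annotated end. The same held for FAM193A (tail 5302 bp), CBFA2T3 (7249 bp), CLIC2 (10085 bp) and CSGALNACT2 (6054 bp), and nearly for AGFG2 (4444 bp). CBFA2T3, a corepressor of erythroid genes, had 2 and 3 counts past the end in TT-Seq and 7 and 7 by Total RNA-Frag-Seq, beside 125 and 133, and 44 and 23, before it (-3.35 ± 0.76, adjusted p = 0.000228). AGFG2 (-3.48 ± 0.75), FAM193A (-3.37 ± 0.78), CLIC2 (-3.31 ± 0.91) and CSGALNACT2 (-3.23 ± 1.17) rested on at most 10 counts per TT-Seq or Total RNA-Frag-Seq library past the end. The downstream windows of AGFG2 and CBFA2T3 hold the annotated starts of SAP25 and PABPN1L, listed on either strand, whose part was not tested. FAM193A was not called without Total RNA-Frag-Seq replicate 1 (adjusted p = 0.0955) or with 10 kb windows (-0.72, adjusted p = 0.363), and CLIC2 not without Total RNA-Frag-Seq replicate 2 (adjusted p = 0.111). CSGALNACT2 was not called without any of TT-Seq replicate 1 (adjusted p = 0.0981), TT-Seq replicate 2 (adjusted p = 0.0503) or Total RNA-Frag-Seq replicate 1, where it changed sign (1.64, adjusted p = 0.717), nor by DESeq2 (adjusted p = 0.0851). From the annotated gene end all 6 were above 0, with no call for AGFG2 (0.53, adjusted p = 0.167). SETD2 had 28.6% and 28.7% past the gene end in TT-Seq against 8.53% and 10.2% by Total RNA-Frag-Seq (1.64 ± 0.22).

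Among ends with the most TT-Seq signal past them, several units stopped inside an annotated gene. ALDH1L2, a mitochondrial folate enzyme, had 136% and 135% of its last 5 kb past the unit end in TT-Seq, and 141% and 164% by Total RNA-Frag-Seq, and its unit stopped before the gene's end (a tail of -16787 bp). SARM1 and DNM1L also stopped before theirs (tails of -13463 and -28664 bp). Their windows past the unit end therefore lie within the gene. NOPCHAP1, the partner of ALDH1L2 and a chaperone of small nucleolar RNP assembly, had 103% and 90.7% by TT-Seq, 85.1% and 100% by Total RNA-Frag-Seq, with a tail of 18168 bp. GORASP2 had 115% and 72.7%, against 225% and 28.6%, on few counts. At the low end, FTH1, the ferritin heavy chain, had 0.0936% and 0.0704% by TT-Seq and 0.0134% and 0.0309% by Total RNA-Frag-Seq past its unit end. Past its gene end it had 5.54% and 4.87% by TT-Seq, 0.940% and 0.862% by 4sU-Seq, 0.125% and 0.112% by Total RNA-Frag-Seq and 0.144% and 0.0743% by Total RNA-Seq, a TT-Seq to Total RNA-Frag-Seq difference of 5.43 ± 0.23 (adjusted p = 1.26e-24). PTMA, prothymosin alpha, had 1.70% and 1.59% past its gene end in TT-Seq, against 0.0806% and 0.0871% by Total RNA-Frag-Seq (4.29 ± 0.35, adjusted p = 1.71e-15). FTH1 and PTMA have processed pseudogenes, so their counts are uncertain in how reads were split between copies. XPO5, the exporter of microRNA precursors whose unit also holds YIPF3, had 0.166% and 0.347% past its unit end but 30.9% and 37.7% past its gene end in TT-Seq. REEP6, with 0.0966% and 0.329%, was also among the 5 lowest past the unit end in TT-Seq, and differed by 2.36 ± 0.33 past the gene end (adjusted p = 7.12e-09).

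Around the midpoint the strands were more evenly matched in newly made RNA than in total RNA. The midpoint lies between ends called from TT-Seq, which favours TT-Seq counts on both strands there, so its values are a description. 4sU-Seq was not used to call the ends, but it holds RNA labelled in the same way, so the choice can favour it too. In the 99 pairs with at least 20 counts in the central 2 kb in all 8 libraries, the weaker strand had a median 20.5% and 23.1% of counts by TT-Seq and 13.7% and 15.4% by 4sU-Seq. It had 10.0% and 10.5% by Total RNA-Frag-Seq and 11.5% and 9.52% by Total RNA-Seq. The weaker strand reached at least 10% in 81 and 81 of these pairs in TT-Seq, 61 and 65 by 4sU-Seq, 50 and 52 by Total RNA-Frag-Seq and 51 and 49 by Total RNA-Seq. These shares, for which no test was planned, stood far above the wrong-strand background. Over all pairs with at least 20 counts in a given library, the means of the 2 replicate medians were 24.7% for TT-Seq, 16.1% for 4sU-Seq, 10.3% for Total RNA-Frag-Seq and 10.5% for Total RNA-Seq. In the last 5 kb before the unit end, the median member had 15.7% and 15.8% of counts on the partner's strand in TT-Seq, 12.5% and 11.5% by 4sU-Seq, 10.1% and 10.4% by Total RNA-Frag-Seq and 11.7% and 10.4% by Total RNA-Seq. Units with no unit on the other strand had 0.392% to 0.894% in the same window. Before the annotated gene end the median member's opposite-strand share was 2.57% and 2.72% by TT-Seq, against 1.06% and 1.34% by Total RNA-Frag-Seq.

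**Figure D4:**
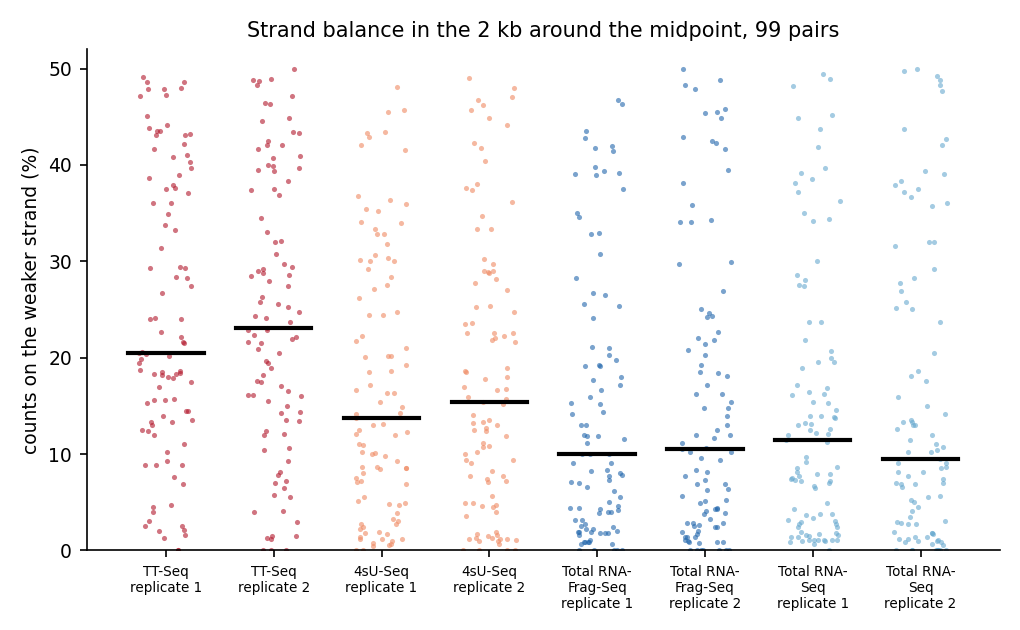
Share of counts on the weaker strand (%, vertical axis) in the 2 kb around the midpoint, with a point per pair for the 99 pairs with at least 20 counts in all 8 RNA libraries (horizontal axis) and a bar at the median. The medians are 20.5% and 23.1% in TT-Seq and between 9.52% and 11.5% in the total RNA libraries, and points range widely within every library.

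The overlaps were called from TT-Seq on both strands, so TT-Seq counts of both strands there follow from how the pairs were chosen. Of 115 overlapping pairs with a bin in the overlap, 106 and 105 had more than 3 counts on both strands there in TT-Seq, 94 and 95 by 4sU-Seq, 85 and 82 by Total RNA-Frag-Seq and 88 and 82 by Total RNA-Seq. These numbers follow depth too, as the TT-Seq libraries were the deepest. The median level of the weaker strand there was 0.183 and 0.178 CPM per kb by TT-Seq and 0.195 and 0.177 by Total RNA-Frag-Seq, while that of the stronger strand was 0.490 and 0.549 by TT-Seq and 1.53 and 1.22 by Total RNA-Frag-Seq. The weaker strand was thus at a similar level in both groups, and the stronger strand was the one that stood higher in total RNA. In the gaps of the 96 facing pairs, more than 3 counts on both strands were found in 23 and 27 pairs in TT-Seq and in 12 and 10 by Total RNA-Frag-Seq, again with no correction for depth.

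Among pairs with both genes named and both ends tested past the unit end, those with the longest overlaps differed in how even their strands were. SLC39A13, a zinc transporter (chromosome 11, 47408401 to 47419116, plus strand), overlaps PSMC3, an ATPase of the proteasome cap (47414190 to 47426458, minus strand), by 4927 bp, while their annotated ends lie 2274 bp apart. In the central 2 kb SLC39A13's strand had 56 and 87 counts by TT-Seq and 111 and 57 by Total RNA-Frag-Seq, and PSMC3's strand had 61 and 62 by TT-Seq and 14 and 19 by Total RNA-Frag-Seq. The weaker strand thus had 47.9% and 41.6% by TT-Seq, against 11.2% and 25% by Total RNA-Frag-Seq. ATG4D, an autophagy protease, and KRI1, a ribosome assembly factor known from yeast, have annotated genes that overlap by 334 bp (a distance of -334 bp). Their weaker-strand share was 33.2% and 39.4% by TT-Seq, 32.9% and 41.7% by 4sU-Seq, 39.4% and 41.7% by Total RNA-Frag-Seq and 39.2% and 42.7% by Total RNA-Seq, with no order of the groups. In DBNL with POLM the share was 24.1% and 25.3% by TT-Seq, and 37.5% and 42.9% by Total RNA-Frag-Seq, the reverse order. HAGHL's unit lies almost wholly opposite that of CIAO3, an iron-sulfur assembly factor, and the pair had 36.0% and 29.0% by TT-Seq and 32.9% and 34.0% by Total RNA-Frag-Seq. ERFE, the erythroid hormone erythroferrone, and ILKAP, a phosphatase, had 20.2% and 17.6% by TT-Seq, against 20.3% and 18.5%. THRAP3 and STK40, which overlap by 4041 bp, had 22 and 29 counts on the strand of THRAP3 by TT-Seq and 43 and 26 by Total RNA-Frag-Seq, and 8 and 9 on that of STK40 by TT-Seq against 0 and 0. EBAG9 and SYBU, whose annotated ends are 7981 bp apart, had 27 and 21, and 33 and 30, counts on the plus and minus strands in TT-Seq, but 1 and 1, and 1 and 0, in Total RNA-Frag-Seq.

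Among the 6 such pairs with the smallest gaps, DOLPP1 with CRAT alone had at least 20 central counts in all 8 libraries. DOLPP1, which recycles dolichyl pyrophosphate, and CRAT, carnitine acetyltransferase, face each other 313 bp apart. CRAT's strand held 27 and 32 counts by TT-Seq, and 142 and 118 by Total RNA-Frag-Seq, in the central 2 kb, while DOLPP1's held 5 and 9 by TT-Seq and 3 and 3 by Total RNA-Frag-Seq. The weaker share was 15.6% and 21.9% by TT-Seq, against 2.07% and 2.48%, and the groups did not overlap. NOPCHAP1 and ALDH1L2 had 43.8% and 41.8% by TT-Seq, and 50% and 45.5% by Total RNA-Frag-Seq. GORASP2 and TLK1 had 14 and 7, and 14 and 19, counts by TT-Seq, against 6 and 0, and 1 and 3, in Total RNA-Frag-Seq. HCCS with ARHGAP6 (gap 271 bp), FAM193A with TNIP2 (521 bp) and IRAK4 with TWF1 (772 bp) had at most 16 counts per strand and library there.

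Polymerase was dense where the units met. In S2P ChIP the median over pairs was 4.11- and 3.58-fold over the genome mean in the bin centred 9.5 kb before the midpoint, 9.73- and 10.9-fold at 0.5 kb past it and 10.6- and 10.4-fold at 2.5 kb past it. In N20 ChIP the same positions gave 2.94 and 2.91, 4.41 and 4.50, and 4.41 and 4.23. Around the 4459 lone ends, mRNA units with no unit on the other strand within 10 kb, S2P ChIP lay between 0.538- and 1.26-fold at the positions 9.5, 2.5 and 0.5 kb on either side read here, and N20 ChIP between 0.981- and 1.32-fold. The polymerases of both partners add up at a midpoint, as ChIP has no strand, and chromosomes and gene lengths differ between the sets. Their part in this difference was not tested. In the overlaps themselves the median was 16.5- and 17.7-fold in S2P ChIP and 6.99- and 5.62-fold in N20 ChIP. In the gaps it was 5.63- and 5.40-fold in S2P ChIP and 3.43- and 3.55-fold in N20 ChIP. Across pairs, the ChIP level 5 to 10 kb on one side of the midpoint followed that on the other side with a Spearman coefficient of 0.39 to 0.49 over the 4 libraries (215 pairs, which share library and depth).

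**Figure D5:**
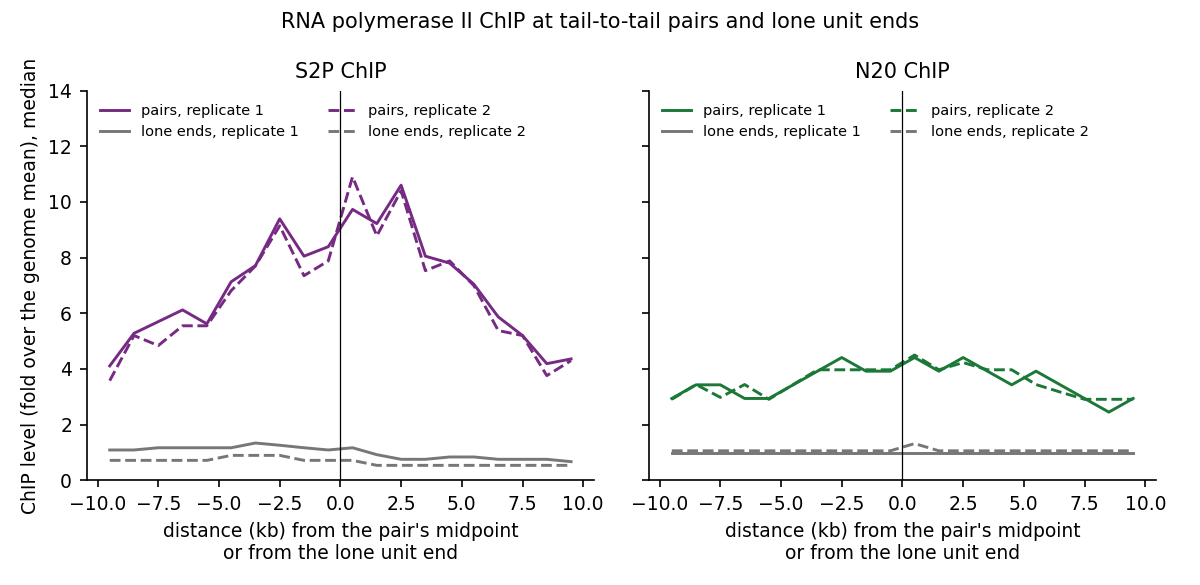
Median ChIP level (fold over the genome mean, vertical axis) in 1 kb bins by distance (kb, horizontal axis) from the midpoint of the 215 pairs (coloured) or from the 3' end of 4459 lone units (grey), for S2P ChIP on the left and N20 ChIP on the right, with a solid line for replicate 1 and a dashed line for replicate 2. S2P ChIP climbs to 9.73- and 10.9-fold near the midpoint and N20 ChIP to 4.41- and 4.50-fold, while lone ends lie far lower.

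Set against the gene starts, the antibodies gave different orders. In the 81 pairs whose RefSeq start lay within 1 kb of the unit start for both genes, N20 ChIP in 2 kb windows had a median of 14.7- and 16.6-fold over the genome mean at the 162 starts and 3.92- and 3.97-fold at the midpoints. MYO1D and MAP3K3 are each in 2 of these pairs, so their starts are counted repeatedly among the 162. The N20 level at the midpoint was below both starts in 60 and 73 pairs and above both in 5 and 1. S2P ChIP had 6.44- and 10.2-fold at the starts and 7.42- and 6.54-fold at the midpoints, so its replicates disagreed on which was higher. It was above both starts in 41 and 31 pairs and below both in 31 and 39. At the MARK3 and CKB pair, whose promoter sequences are given above, S2P ChIP reached 33.0- and 30.8-fold at the midpoint, against 6.79- and 11.7-fold at the MARK3 start and 11.9- and 27.0-fold at the CKB start. N20 ChIP there had 9.80- and 9.0-fold at the midpoint, 17.6- and 15.3-fold at the MARK3 start and 9.31- and 20.5-fold at the CKB start. At PKN2 and GTF2B, S2P ChIP was 1.30- and 0.896-fold at the midpoint, against 8.47- and 17.9-fold at the PKN2 start and 2.35- and 3.58-fold at the GTF2B start. These pairs are therefore opposites in S2P ChIP, high at the midpoint in the first and near the genome mean in the second. CKB's unit is only 3.72 kb long, so its start lies close to its midpoint.

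Measured as a ratio of the 5 kb past the unit end to the last 5 kb before it, S2P ChIP was lower than N20 ChIP in more members than it was higher. Of 353 members, 24 were higher and 77 lower in S2P ChIP (median -0.28), beside 27.9% called among 5773 mRNA units, 1.4% higher and 26.5% lower (median -0.62). Without N20 ChIP replicate 1 the calls were 18 and 38, and without N20 ChIP replicate 2 they were 14 and 37. With 2 kb windows 8.24% of members were called. In unstranded ChIP, partners whose 3' ends nearly coincide have windows that largely mirror each other, which pulls their ratios to opposite signs. The sets by distance are also nested, so no trend with distance can be read from them. With 3' ends at most 2 kb apart, 11 of 118 members were higher and 13 lower (median 0.03). Pairs without overlap gave 16 higher and 28 lower of 155 (-0.07). Up to 10 kb apart, 31 were higher and 196 lower of 716 (-0.45), 31.7% called beside 27.9% of all mRNA units. With 10 kb windows 44 were higher and 65 lower. From the annotated gene end the direction turned: 47 of 342 members were higher and 19 lower (median 0.20), beside 17.7% of 5329 units called, 10.8% higher and 6.91% lower (median 0.09). Members with an annotated gene start in the downstream window only had a median of -0.15 (46 members), those with one in the body window only -0.11 (41), those with both 0.38 (9) and those with neither -0.33 (257).

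The members with the highest and lowest end ratios were heterogeneous. THRAP3, an mRNA processing factor whose unit also holds SH3D21 and runs 32178 bp past its gene end, had 1104% and 2010% of its last 5 kb past the unit end in S2P ChIP, against 350% and 363% in N20 ChIP (log2 2.04 ± 0.33, adjusted p = 0.00056). SNRK, a kinase, had 2373% and 3218% in S2P ChIP, against 322% and 473% in N20 ChIP (2.75 ± 0.42, adjusted p = 0.000407). Its last 5 kb held 52 and 22 counts in S2P ChIP and 18 and 30 in N20 ChIP. PDE6D, which carries prenylated proteins and is the partner of PTMA, had 1841% and 1560%, against 390% and 364% (2.20 ± 0.37, adjusted p = 0.000665). The ChIP is unstranded, so these downstream windows also hold polymerase of the partner, whose share was not tested. DHRS12, whose unit stops before the gene's end (a tail of -21404 bp), had 137% and 156%, against 39.3% and 38.0% (1.92 ± 0.38, adjusted p = 0.00202). At the other end, LONP1, a mitochondrial protease, had 4.25% and 2.31% in S2P ChIP and 13.8% and 21.7% in N20 ChIP (-2.48 ± 0.30, adjusted p = 7.02e-05), and its body window holds the annotated start of RPL36. NLRP1, an inflammasome sensor, had 4.75% and 3.85%, against 33.3% and 23.6% (-2.68 ± 0.42, adjusted p = 0.000443), and its body window holds the annotated starts of LOC124900388 and LOC728392. KMT5A, the histone H4 lysine 20 methyltransferase, had 21.9% and 22.6%, against 100% and 91.4% (-2.10 ± 0.31, adjusted p = 3e-04), but was not called with 2 kb windows (-0.39, adjusted p = 0.702). C3AR1, the complement C3a receptor, was called lower (-2.21 ± 0.65, adjusted p = 0.019) on 2 and 20 N20 counts in its last 5 kb, and lost the call without N20 ChIP replicate 1 (adjusted p = 0.111) or S2P ChIP replicate 1 (adjusted p = 0.0732), and with 2 kb (adjusted p = 0.0801) or 10 kb windows (-0.67, adjusted p = 0.169). Of these 8 only THRAP3 and LONP1 kept both direction and call from the annotated gene end, at 1.46 and -1.20.

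The machinery that ends transcription was itself read from a list of 30 genes for cleavage, polyadenylation and termination, 28 of which had a unit and 2 of which were in pairs. Of the 28, 8 were higher and 15 lower by TT-Seq, relative to Total RNA-Frag-Seq, at unit level (median -0.26). Of the mRNA class, 17.9% were higher and 61.2% lower (median -0.34), and of all units 43.2% were higher and 37.8% lower. In the ratio past the annotated gene end 26 were higher and 1, CSTF2, lower (median 2.77), beside 88.2% higher and 1.58% lower among all mRNA units tested, so the list's share was near the general one. CSTF2, a subunit of the cleavage stimulation factor, was named after its call was seen. SSU72, a phosphatase of the polymerase's C-terminal repeat, is paired with ATAD3A across a gap of 2669 bp. Its unit had 1.63 and 1.82 CPM per kb by TT-Seq, against 3.88 and 3.29 by Total RNA-Frag-Seq (log2 -1.05 ± 0.07, adjusted p = 3.07e-09). Past its gene end it had 4.52% and 3.88% by TT-Seq, against 0.895% and 0.592% (2.42 ± 0.36, adjusted p = 5.17e-08). CPSF3, the endonuclease that cuts the pre-mRNA, is paired with ADAM17. It had 1.07 and 1.10 CPM per kb by TT-Seq, against 1.07 and 1.09 by Total RNA-Frag-Seq (0.00 ± 0.06, adjusted p = 1; 0.35 and called without scaling), and 7.74% and 13.1% past its gene end, against 1.37% and 1.21% (2.98 ± 0.42, adjusted p = 1.5e-08).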

How the data were processed

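Binned counts, the authors' deposited unit, hold RNA fragments by strand and ChIP without strand in 200 bp bins of hg38 (GRCh38). The submitters' processing notes list Bowtie2 2.1.0, STAR 2.3.0 and SAMtools without roles. For reads with several matches, the handling is not given in the sources used. Units and classes are those of the deposited annotation. Gene symbols came from RefSeq genes of GRCh38.p14: a unit took the coding gene of its strand with a Jaccard overlap of at least 0.5, or covered to 0.8 with starts within 3 kb. Of 425 members, 391 were named, 62 of them by a gene whose strand the tables do not give (with strands hidden, 29 of 5879 units took a gene of the other strand), and 52 hold several coding genes. Bins were summed over units and over 5 kb windows before and past the unit end or gene end. The window before the end was cut at the unit's start where the unit was too short. Percentages by library compare counts per kb of the windows.

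Unit counts were filtered with filterByExpr, scaled by TMM (factors 0.873 to 1.113) and tested over all units with edgeR 4.0.16 in R 4.3.3 (quasi-likelihood, Benjamini-Hochberg at 0.05). Ratios were tested with edgeR as a window by group term beside a term per library, in which library scaling cancels, for mRNA units with 100 counts before and 20 past the end over all libraries. CPM uses TMM-scaled totals. Simulated data were used to check the unit-level fit, the RNA ratio at unit ends and the ChIP ratio. Changes were planted only in units with counts far above these minimums, so recovery of changes on few counts was not checked. The other steps, the gene-end ratio among them, were not simulated. Nor were the RNA comparisons that involve 4sU-Seq or Total RNA-Seq. RNA libraries are duplicates of biological origin per the design text; nothing says this of ChIP, so its p-values may measure technical spread. Alternatives included DESeq2 1.42.0.

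Same-numbered libraries correlated at -0.014 to 0.129 in their deviations over 19318 units, so the numbers were not taken as pairs. Genes were named by a rule over units with a symbol (both units, for pairs): the 8 pairs with the highest weaker partner in TT-Seq, the 6 longest overlaps and 6 smallest gaps among pairs whose ends both passed the count minimum, the 3 pairs on either side of the limit, the 6 highest and 6 lowest read-through ratios, the 5 highest and lowest in TT-Seq, the 4 highest and lowest ChIP ratios and list members in pairs. Members, lists and rules were chosen with earlier results of these data known. A gene that the rule named and a marker gene are not reported here.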

Additional observations from a re-analysis of the deposited data

How the results depend on the processing

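Values here are the percentage of tested members called. At unit level they ran from 82.1 to 85.4 (TT-Seq compared with Total RNA-Frag-Seq) and 62.4 to 72.5 (4sU-Seq with Total RNA-Seq) with 1 library left out. Past the annotated gene end, leaving out a library gave 79.4 to 85.3 for TT-Seq with Total RNA-Frag-Seq, 50.3 to 53.1 for 4sU-Seq with Total RNA-Seq and 66.9 to 70.1 for TT-Seq with 4sU-Seq, and no other setting moved these percentages by over 1.5 times. The ratios past the unit end depended most on the settings. For TT-Seq with Total RNA-Frag-Seq (27.0) DESeq2 gave 9.35, the annotated gene end 86.2 and leaving out a library 13.5 to 20.3. For 4sU-Seq with Total RNA-Seq (8.54, more members lower) DESeq2 gave 0.712 and 2 kb windows 4.0. There, more members became higher without the downstream minimum (4.49), with only the libraries compared (7.83), from the annotated gene end (57.9), with the downstream window 1 kb past the end (11.2), with 10 kb windows (12.7) and in 3 of 4 fits without a library (3.2 to 5.34). For TT-Seq with 4sU-Seq (7.12) DESeq2 gave 1.92, with an adjusted p for 52 members, the gene end 77.1, the window 1 kb past the end 12.9, 10 kb windows 12.3, pairs without overlap 11.7 and leaving out a library 2.85 to 4.27. For Total RNA-Frag-Seq with Total RNA-Seq (0.356) DESeq2, the gene end and ends at most 2 kb apart gave 0.0, 10 kb windows 1.06, 2 kb windows 1.0 and pairs without overlap 0.833, and leaving out a library 0.356. For S2P ChIP with N20 ChIP (28.6) the gene end gave 19.3 with more members higher, 2 kb windows 8.24, halved counts 28.3 and leaving out a library 14.4 to 27.5. The cause of these moves was not tested, beyond the smaller number of samples or genes that some settings use.

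The replicate numbers were not taken as pairs, though low correlations cannot show that same-numbered libraries were prepared apart. A replicate block gave 87.3 and 74.1 at unit level, 26.3, 7.12, 6.76 and 0.356 past the unit end, 29.2 for ChIP and 85.6, 57.9 and 76.3 past the gene end, so it moved none of these by over 1.5 times. As same-numbered ChIP libraries correlated at -0.126, a crossed pairing was added after seeing the data, and gave 27 members higher and 90 lower. The gene-end ratio's alternatives and the halved counts were also chosen after seeing the data.

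The weaker strand's share, in % and as the mean of replicates, was 21.7 in 1 kb and 27.6 in 4 kb around the midpoint for TT-Seq, 10.5 and 21.0 for 4sU-Seq, 5.62 and 14.1 for Total RNA-Frag-Seq and 5.21 and 14.7 for Total RNA-Seq. Single libraries ran from 24.0 to 25.4, 15.4 to 16.7, 10.0 to 10.6 and 9.09 to 12 in the same order, in 2 kb.

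Single genes changed sign as follows. Without scaling, FAM89A became 0.1, SAE1 0.03 and BBC3 0.08. From the gene end, SETD2 became 1.64, FAM193A 2.2, AGFG2 0.53, CSGALNACT2 3.79, CBFA2T3 2.06 and CLIC2 2.31. CSGALNACT2 was 0.99 with 10 kb windows and ran from -4.21 to 1.64 with a library left out. In ChIP from the gene end, SNRK became -1.93, C3AR1 0.8, DHRS12 -1.18 and NLRP1 0.7, and LONP1 became 0.89 with 2 kb windows. Of the other single-gene values, 567 stayed on their side of the threshold (with PKN2, CPSF3 and MARCHF3 at unit level, not called and near 0, on either side of 0), 28 lost their call and 4 gained one. The depth past unit ends, under 20 counts in 75 members, limits these ratios.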
